A study of Mus musculus with 3 samples.

Results

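The genes described here are the protocadherins, the classical and related cadherins, and the 3 Celsr genes, 72 of the 20145 mouse genes that could be named on the arrays. They were chosen by symbol, as Pcdha, Pcdhb and Pcdhg genes, numbered Pcdh and Cdh genes, and Celsr1 to Celsr3, wherever a mouse probe carried the accession of a RefSeq transcript of such a gene. The RefSeq table holds 96 genes with such symbols, and 24 of them had no matched probe. The 72 genes were read by 91 probes, 60 genes by 1 probe and 12 by several, and a gene's value is the mean of the log2 values of its probes.

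Each of the 3 FACS-purified populations was read on 1 one-color array, all on 1 slide. The MGE-GFP+ population came from the medial ganglionic eminence (MGE) of E12.5 embryos of a CD1 background carrying an Lhx6-GFP BAC, and is labelled female. The ES-Lhx6-GFP+ and ES-Lhx6-GFP- populations came from the same differentiation of J14 ES cells, labelled male, of strain 129S4/SvJae, with the Lhx6-GFP BAC and a viral mCherry enhancer reporter. The J14 cells were grown as aggregates with Dkk-1 (100 ng/ml), a Wnt antagonist, and SAG (6 nM), an agonist of Sonic hedgehog signaling, and were sorted on day 12. All 3 populations carry an Lhx6-GFP BAC, in which Lhx6 regulatory DNA drives GFP, so GFP marks cells by the activity of a transgene. How many embryos were pooled is not given in the sources used here. Since each population has a single array, neither a spread between replicates nor a p-value could be computed. The MGE array differs from both ES arrays in strain, sex label, source of the cells, the viral reporter and the dissociation. By the paper's methods, the aggregates were dissociated with a neural tissue enzyme kit and a Rock inhibitor, and the MGE with trypsin. The parts of these in a difference cannot be told apart.

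Cadherins are calcium-dependent adhesion proteins of the cell surface. Type I and type II classical cadherins bind the same or a related cadherin on the neighbouring cell and are tied to actin through the catenins. The clustered protocadherins are made from 3 gene clusters, alpha, beta and gamma, that lie side by side; each neuron uses a small set of their promoters, and the resulting mixture on the surface lets a neurite recognise its own branches. In the alpha and gamma clusters each variable exon is spliced to constant exons shared by the whole cluster, while a beta gene is a complete gene by itself. The delta protocadherins are encoded outside the clusters and act in cell sorting, migration and axon growth, and the Celsr proteins are 7-pass cadherins of the planar polarity pathway, known for axon tract formation and interneuron migration.

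Values are given as relative intensity, the background-subtracted spot intensity divided by the 75th percentile of all mouse probes on the same array, so that 1 is that percentile. Differences are on the log2 scale. Repeat spots of a probe within an array had an SD of 0.14 on the log2 scale on each array, and 2 SDs of a difference between arrays came to about 1.32-fold, an error that covers printing and reading of an array but not cultures, embryos or amplifications. Where 3 levels are given without names, ES-Lhx6-GFP+ comes first, then ES-Lhx6-GFP-, then MGE-GFP+. As a measure of signal that is not mouse RNA, 106 probes against E1A of adenovirus and against ERCC sequences served as control probes. Their 95th percentile was at a relative intensity of 0.504, 0.247 and 0.264, and their median at 0.0935, 0.0137 and 0.0134. A gene is called different where the difference was at least 2-fold and its level on the brighter array exceeded that array's 95th percentile of the control probes. Levels of different genes were read by different probes, so no gene is reported as higher or lower than another, and levels within a class served only to choose which genes are named.

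The labels were checked with marker genes. The summed relative intensity of 10 MGE interneuron lineage genes, all above the control probes on every array, was 124 in ES-Lhx6-GFP+, 30.9 in ES-Lhx6-GFP- and 208 in MGE-GFP+ cells, and Lhx6 itself was at 29.8, 4.82 and 51.1. The sum of 7 radial glia genes was 12.0, 60.7 and 14.7, with Hes1 and Slc1a3 within the range of the control probes on both GFP+ arrays. The sum of 8 mesenchymal and meningeal genes was 3.98, 5.99 and 0.339, with 2, 6 and 0 of them above the control probes. That of 4 oligodendrocyte lineage genes was 1.07, 7.64 and 1.15, with 1, 3 and 1 above them. That of 6 epithelial genes was 5.09, 5.19 and 1.00, with 4, 4 and 1 above them, and that of 4 choroid plexus genes was 2.94, 4.83 and 1.34, with 2, 3 and 1 above them. The sum of 6 pan-neuronal genes was 112, 72.1 and 142. Of 7 pluripotency genes 1, 7 and 1 exceeded the control probes. Nanog, read by 1 probe, did so on every array, at 309, 298 and 391, highest in MGE-GFP+ cells. Of 5 erythroid genes 1, 1 and 2 did, with Hba-a1 at 0.865, 0.638 and 10.4. Of 6 microglia genes 1, 1 and 2 did, and of 4 neural crest genes 0, 1 and 0. In sorted populations read in bulk, fewer cells of a type and less RNA per cell cannot be told apart.

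Of the 72 cadherin genes, 42 exceeded the control probes in ES-Lhx6-GFP+ cells, 46 in ES-Lhx6-GFP- cells and 37 in MGE-GFP+ cells, or 58.3, 63.9 and 51.4%, against 43.7, 54.7 and 49.6% of all genes. On all 3 arrays 34 genes exceeded them, on at least 1 array 48 did, and 24 did so on none, by the mean of their probes. Those 24 were 3 alpha, 5 beta, 1 delta-1 and 2 other protocadherins, 3 type I, 7 type II and 3 other cadherins. Among them, 19 of the 22 with a value were brighter in ES-Lhx6-GFP+ than in ES-Lhx6-GFP- cells, and over all genes of that kind 85.2% were. Single probes of Pcdh9 and Pcdh15 among the 24 did exceed the control probes. The control probes themselves were brighter on the ES-Lhx6-GFP+ array, and their part in the values of such dim genes was not tested.

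**Figure D1:**
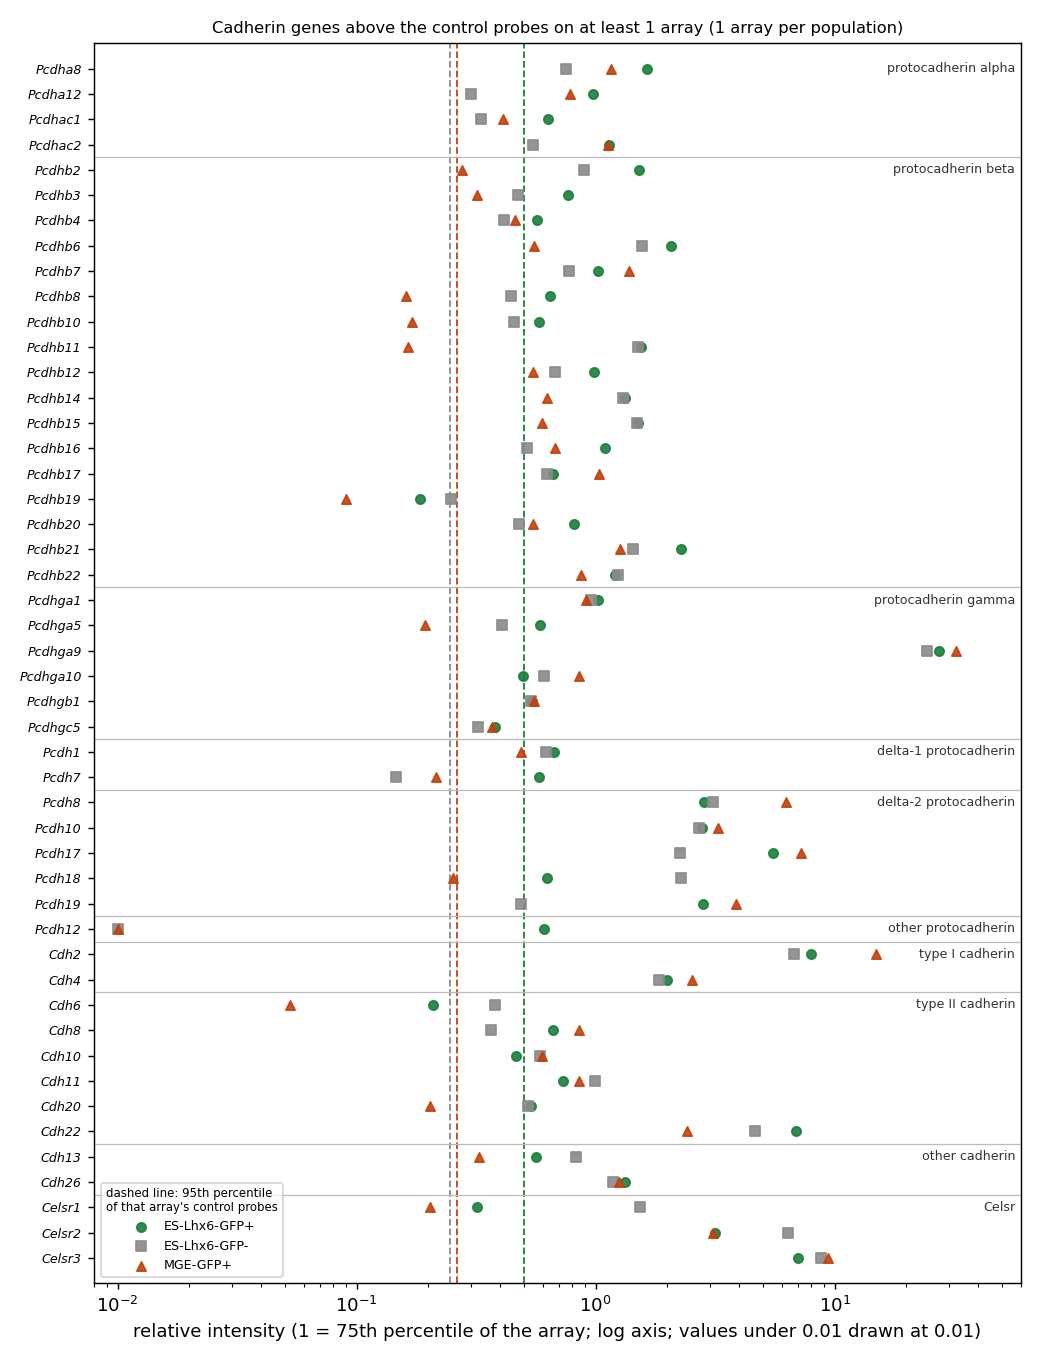
Relative intensity (log axis, 1 is the 75th percentile of the array) of the 48 cadherin genes above the control probes on at least 1 array, with 1 point per population and dashed lines at the 95th percentile of each array's control probes (0.504, 0.247 and 0.264). All 4 alpha genes are highest in ES-Lhx6-GFP+ cells, though under scaling by the 50th percentile they are highest in MGE-GFP+ cells and under quantile normalization 1 of the 4 is, and Pcdh12 is drawn at the left edge for the 2 arrays on which it was not well above background.

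Promoters are shown for 4 genes that the arrays set apart and that have an entry in the RefSeq promoter table of GRCm38.p6: Pcdh19 and Pcdh17, which were higher in both GFP+ populations than in ES-Lhx6-GFP- cells, and Pcdh18 and Celsr2, which were lower there. Each run holds 250 bases before and 50 bases after the annotated start, written 5′ to 3′ on the strand of the gene. Capitals mark GGGCGG (the GC box), GATTGGCT (which contains the reverse complement of CCAAT, the CCAAT box) and CAGGTG (an E-box), searched on both strands. Pcdh19 lies at chrX:133688944-133689243 on the minus strand, Pcdh17 at chr14:84443313-84443612 on the plus strand, Pcdh18 at chr3:49757267-49757566 on the minus strand and Celsr2 at chr3:108415530-108415829 on the minus strand.
Pcdh19: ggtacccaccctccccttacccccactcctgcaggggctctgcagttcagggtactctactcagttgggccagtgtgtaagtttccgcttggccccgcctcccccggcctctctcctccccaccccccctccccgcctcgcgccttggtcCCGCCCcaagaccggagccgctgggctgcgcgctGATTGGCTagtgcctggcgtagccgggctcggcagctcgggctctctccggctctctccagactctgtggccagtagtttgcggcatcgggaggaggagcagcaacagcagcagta
Pcdh17: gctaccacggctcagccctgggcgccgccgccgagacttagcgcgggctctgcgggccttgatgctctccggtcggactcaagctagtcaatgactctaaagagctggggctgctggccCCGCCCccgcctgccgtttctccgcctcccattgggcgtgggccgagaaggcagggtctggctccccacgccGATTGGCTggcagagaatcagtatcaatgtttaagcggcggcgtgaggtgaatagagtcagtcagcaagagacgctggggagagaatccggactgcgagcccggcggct
Pcdh18: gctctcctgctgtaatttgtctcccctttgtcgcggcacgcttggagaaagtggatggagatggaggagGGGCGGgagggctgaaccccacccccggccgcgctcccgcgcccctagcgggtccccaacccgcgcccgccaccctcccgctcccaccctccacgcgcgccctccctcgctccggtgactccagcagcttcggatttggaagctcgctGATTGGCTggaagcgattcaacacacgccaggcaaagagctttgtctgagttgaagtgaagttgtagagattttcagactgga
Celsr2: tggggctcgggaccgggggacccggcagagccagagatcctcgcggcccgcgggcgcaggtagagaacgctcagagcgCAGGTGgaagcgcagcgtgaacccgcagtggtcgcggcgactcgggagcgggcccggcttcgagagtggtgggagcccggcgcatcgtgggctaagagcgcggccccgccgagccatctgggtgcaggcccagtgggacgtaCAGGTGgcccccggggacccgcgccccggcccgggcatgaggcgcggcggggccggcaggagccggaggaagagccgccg
The 3 protocadherin promoters each hold a GC box and GATTGGCT, and the Celsr2 promoter holds neither but has CAGGTG at 2 places. Of 24 cadherin genes with a promoter entry, 10 held a GC box, against 35.7% of all 32851 promoters, 15 held CCAAT, against 37.4%, and 4 held CAGGTG, against 20.2%. The units differ: a gene was counted if any of its promoters held the letters, with 27 promoters for the 24 genes. The shares of all promoters count single promoters. GATTGGCT was in 5 of the 24 (Cdh9, Cdh18, Pcdh17, Pcdh18 and Pcdh19), against 3.84% of all promoters, and was picked after the sequences had been seen. It is shared by Pcdh18 and Pcdh19, which differed in opposite directions between the ES populations. The runs hold 18, 26, 23 and 40 CpG dinucleotides in the order shown, where the median promoter held 7. A match says only that these letters are in the window.

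Between the populations sorted from the ES aggregates, a comparison that asks what the Lhx6-GFP+ cells express beside the rest of the same culture, 8 of 70 cadherin genes with a value were called higher in ES-Lhx6-GFP+ cells, or 11.4%, against 3.6% of all genes, and 3 were called lower, or 4.29%, against 5.38%. The 8 were Pcdha8, Pcdha12, Pcdhac2, Pcdhb16, Pcdh7, Pcdh12, Pcdh17 and Pcdh19, and the 3 were Pcdh18, Celsr1 and Celsr2. Of these 11 calls, those on Pcdha12, Pcdh7, Pcdh12, Pcdh18, Pcdh19 and Celsr1 held in all 10 alternative ways of processing, and the other 5 were lost in at least 1. Compared with ES-Lhx6-GFP+ cells, MGE-GFP+ cells had 1 of 69 genes called higher (1.45%, against 4.94% of all genes) and 14 called lower (20.3%, against 5.14%). Compared with ES-Lhx6-GFP- cells, MGE-GFP+ cells had 7 of 67 called higher (10.4%, against 7.99%) and 15 called lower (22.4%, against 10.3%). Of the calls in these comparisons, 6 of 15 (Pcdhb2, Pcdhb6, Pcdhb8, Pcdhb10, Pcdhb11 and Pcdh12) and 10 of 22 (Pcdha12, Pcdhb2, Pcdhb6, Pcdhb11, Pcdhb15, Pcdh17, Pcdh18, Pcdh19, Cdh8 and Celsr1) held in all 10 alternatives. Both comparisons use the MGE array, and the first and the second share the ES-Lhx6-GFP+ array.

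The median difference over the cadherin genes above the control probes was 0.17 on the log2 scale for ES-Lhx6-GFP+ minus ES-Lhx6-GFP-, -0.47 for MGE-GFP+ minus ES-Lhx6-GFP+ and -0.02 for MGE-GFP+ minus ES-Lhx6-GFP-, against -0.04, 0.16 and 0.06 over all genes above them. These values depend on the scaling: with each array's 50th percentile in place of the 75th, the medians over all genes became -0.45, 0.87 and 0.38, and the share of higher calls among all calls went from 40.1 to 11.3%, from 49.0 to 91.8% and from 43.8 to 64.7%. Scaling by the median of genes bright on all arrays put that share at 40.3, 34.4 and 33.0%.

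Of the 34 cadherin genes above the control probes on all arrays, 18 (52.9%) were brightest in ES-Lhx6-GFP+, 4 (11.8%) in ES-Lhx6-GFP- and 12 (35.3%) in MGE-GFP+ cells, where 27.5, 25.8 and 46.7% of the 8306 genes of that kind were. The 18 included all 4 alpha genes and 10 of 13 beta genes. Counted by differences past 2 SDs of repeat spots, ES-Lhx6-GFP+ cells exceeded ES-Lhx6-GFP- cells in 21 of 47 cadherin genes and lay below them in 7, or 44.7 and 14.9%, against 23.5 and 27.4% of all genes. For MGE-GFP+ against ES-Lhx6-GFP+ cells 7 of 44 were higher and 23 lower, or 15.9 and 52.3%, against 34.4 and 22.4%. These counts use the 75th percentile and change with the scaling as the medians do.

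**Figure D2:**
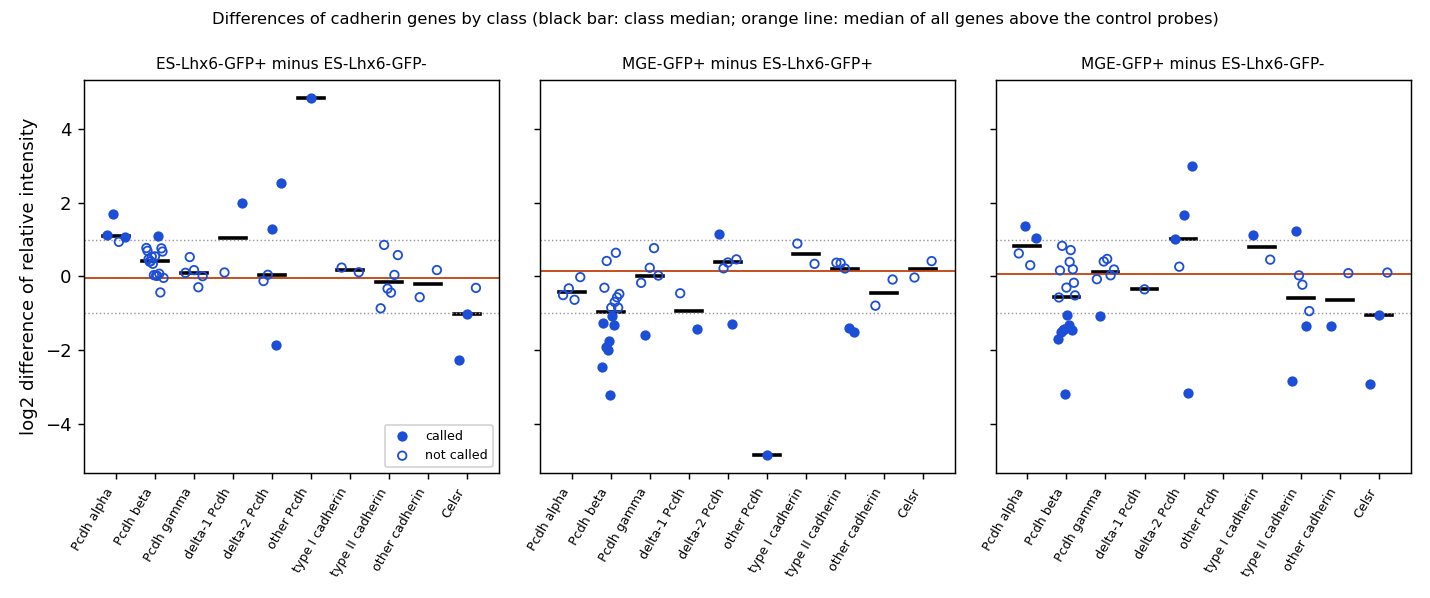
Log2 difference of relative intensity of each cadherin gene above the control probes on the brighter array, by class, for the 3 comparisons; filled points are called, black bars are class medians, the orange line is the median of all genes above the control probes (-0.04, 0.16 and 0.06), and dotted lines mark 2-fold. Most beta genes lie below the line in the middle panel (median -0.97, or -0.22 with scaling by the 50th percentile), the single point of the other protocadherins is the bound of Pcdh12, and the Celsr genes lie below the line in the left panel.

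The alpha cluster, which gives neurons part of their surface identity code, was higher in ES-Lhx6-GFP+ than in ES-Lhx6-GFP- cells in all 4 genes above the control probes, with a median log2 difference of 1.10 (0.65 with scaling by the 50th percentile). All 4 differences were past 2 SDs of repeat spots. Pcdha12 was at a relative intensity of 0.978 in ES-Lhx6-GFP+, 0.301 in ES-Lhx6-GFP- and 0.781 in MGE-GFP+ cells. It was thus 3.24-fold higher in ES-Lhx6-GFP+ and 2.59-fold higher in MGE-GFP+ than in ES-Lhx6-GFP- cells, both called, while the GFP+ populations differed by 1.25-fold, within the repeat-spot error. Pcdha8 was at 1.65, 0.750 and 1.16 in the same order. Its 2.19-fold excess in ES-Lhx6-GFP+ over ES-Lhx6-GFP- cells was called, and its 2 probes gave 2.18-fold and 2.21-fold. Pcdhac2, one of the C-type alpha genes at the end of the cluster, was at 1.14, 0.547 and 1.13, and was called 2.09-fold higher in ES-Lhx6-GFP+ and 2.06-fold higher in MGE-GFP+ than in ES-Lhx6-GFP- cells. Of its 2 probes, 1 was at 5.33, 2.10 and 5.50 and gave 2.53-fold and 2.62-fold. The other stayed within the range of the control probes on all arrays and gave 1.72-fold and 1.62-fold. The 2 calls held in 5 and 6 of the 10 alternatives. Pcdhac1, the other C-type gene, was at 0.635, 0.331 and 0.409 and did not reach 2-fold in any comparison.

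Pcdha4, Pcdha9 and Pcdha11 stayed within the range of the control probes on all arrays, at relative intensities between 0.0892 and 0.487. They too were brighter in ES-Lhx6-GFP+ than in ES-Lhx6-GFP- cells, by log2 differences of 1.29 to 1.60, where the median of all such dim genes was 1.05. In GRCm38.p6 the alpha genes start at different places on chromosome 18, from 36952689 for Pcdha4 to 37143678 for Pcdhac2, and end at 37187657 or 37187663, because they share their last exons. Each probe carried the accession of 1 gene, but the positions of the probes in the transcripts are not given in the sources used here. A probe in a shared exon would read the whole cluster, so whether the 7 alpha values are 7 separate measurements was not tested.

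In the beta cluster, whose genes code for surface proteins of the same identity code, the called differences lay almost all between the MGE and the ES cells. Of 22 beta genes, 17 exceeded the control probes on at least 1 array. In MGE-GFP+ compared with ES-Lhx6-GFP+ cells, 14 of 16 such genes were lower, 13 of them past 2 SDs of repeat spots. Their median log2 difference over the 16 was -0.97, and 8 were called. Over all genes above the control probes 22.4% were lower past 2 SDs, and 5.14% of all genes were called lower. The summed levels of the epithelial genes (5.09, 5.19 and 1.00) and the mesenchymal and meningeal genes (3.98, 5.99 and 0.339) were also lowest in MGE-GFP+ cells. So was that of the 4 choroid plexus genes (2.94, 4.83 and 1.34). Of these, Ttr was at 1.00, 0.923 and 0.00460, Otx2 at 1.47, 3.17 and 1.08, and Folr1 at 0.432, 0.729 and 0.245. Kl stayed within the range of the control probes. The part of these lists in the beta differences was not tested. Scaling by the 50th percentile left 10 of 16 lower with a median of -0.22. Between the ES populations 10 of 17 were higher in ES-Lhx6-GFP+ cells past 2 SDs of repeat spots, 1 was lower and 6 lay within that error. Over all genes above the control probes 23.5% were higher and 27.4% lower past it. The median of 0.41 over the 17 became -0.03 with scaling by the 50th percentile, and only Pcdhb16, at 1.10, 0.515 and 0.677, was called.

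Pcdhb11 differed most within the cluster, at 1.55 in ES-Lhx6-GFP+, 1.51 in ES-Lhx6-GFP- and 0.165 in MGE-GFP+ cells. The ES populations were equal within the repeat-spot error, and MGE-GFP+ cells were 9.39-fold and 9.17-fold lower than they were. Since the MGE value lay within the range of the control probes, the same differences set against that range came to 5.87-fold and 5.73-fold. Pcdhb2 was at 1.52, 0.891 and 0.276, which put MGE-GFP+ cells 5.52-fold below ES-Lhx6-GFP+ and 3.23-fold below ES-Lhx6-GFP- cells. Pcdhb6, at 2.07, 1.57 and 0.552, was 3.75-fold and 2.83-fold lower in MGE-GFP+ cells. Pcdhb8 (0.643, 0.444 and 0.162) and Pcdhb10 (0.578, 0.456 and 0.170) were likewise above the control probes in both ES populations and within their range in MGE-GFP+ cells.

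Pcdhb3, Pcdhb14 and Pcdhb15 complete the 8 beta genes called lower in MGE-GFP+ than in ES-Lhx6-GFP+ cells, by 2.41, 2.12 and 2.51-fold. These 3 calls held in 8, 6 and 9 of the 10 alternatives. Not all beta genes were lower. Pcdhb7 was at 1.03, 0.773 and 1.38 and Pcdhb17 at 0.662, 0.630 and 1.03, so both were highest in MGE-GFP+ cells, beyond the repeat-spot error but short of 2-fold. Pcdhb21, at 2.29, 1.43 and 1.27, and Pcdhb22, at 1.21, 1.24 and 0.867, also differed by less than 2-fold. Pcdhb4 was at 0.571, 0.412 and 0.461 and Pcdhb20 at 0.811, 0.478 and 0.547, both brightest in ES-Lhx6-GFP+ cells, though for Pcdhb4 within the repeat-spot error of MGE-GFP+ cells. Pcdhb19 exceeded the control probes only in ES-Lhx6-GFP- cells, and barely, at 0.249. Pcdhb1, Pcdhb5, Pcdhb9, Pcdhb13 and Pcdhb18 stayed within the range of the control probes on all arrays. Neighbours on the chromosome did not always share a pattern: Pcdhb11 lies beside Pcdhb12, which was at 0.985, 0.675 and 0.547 and was not called in any comparison. Beta genes are close copies of each other, and how far a probe of 1 gene binds transcripts of another was not tested, nor was the part of sequence differences between CD1 and 129S4/SvJae mice.

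**Figure D3:**
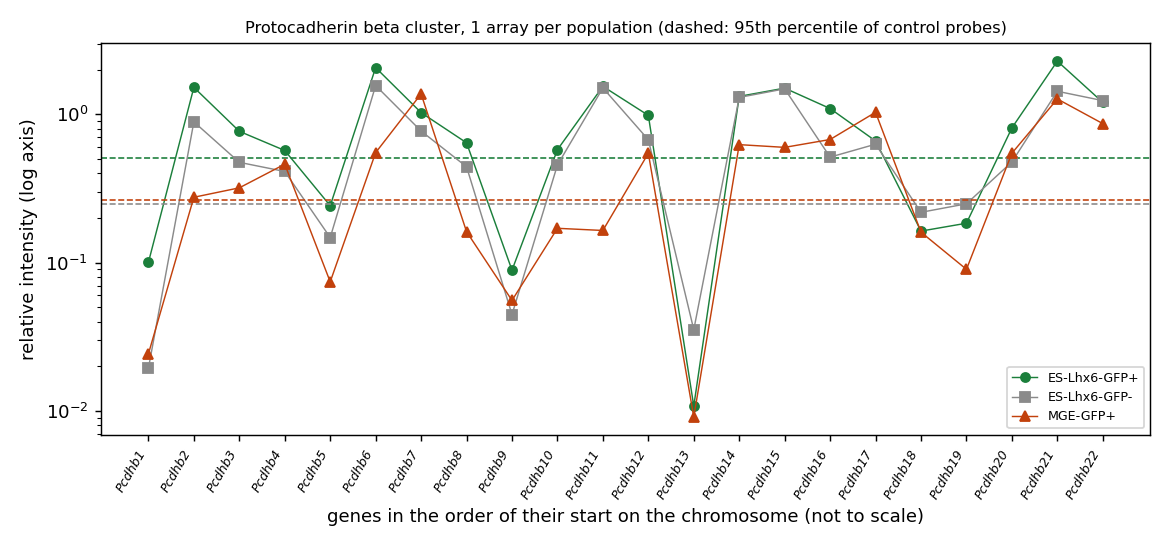
Relative intensity (log axis) of the 22 beta protocadherin genes in their order on chromosome 18, with 1 point per population and dashed lines at the 95th percentile of each array's control probes. MGE-GFP+ cells lie well below both ES populations at Pcdhb2, Pcdhb6, Pcdhb8, Pcdhb10 and Pcdhb11 and above them at Pcdhb7 and Pcdhb17, and the ES populations lie apart at Pcdhb16 (2.13-fold).

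The gamma cluster, needed for the survival of many interneurons, differed little. Its 6 measured genes, of 22 in the RefSeq table, all exceeded the control probes on at least 1 array, and only Pcdhga5 was called in any comparison. Pcdhga5 was at 0.587 in ES-Lhx6-GFP+, 0.408 in ES-Lhx6-GFP- and 0.194 in MGE-GFP+ cells, 3.03-fold and 2.10-fold lower in MGE-GFP+ cells, whose value did not exceed the control probes. Set against that range the folds were 2.23 and 1.55, which ends the call against ES-Lhx6-GFP- cells. Pcdhgb1 was at 0.542, 0.539 and 0.551 and Pcdhga1 at 1.02, 0.957 and 0.908, all within the repeat-spot error of each other. Pcdhga10 was at 0.499, 0.611 and 0.850, 1.70-fold higher in MGE-GFP+ than in ES-Lhx6-GFP+ cells.

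Pcdhgc5, a C-type gene, was at 0.378, 0.323 and 0.368, with no difference beyond the repeat-spot error. Pcdhga9 was read by 2 probes, at 12.1, 11.7 and 12.4 for the one and at 62.6, 51.1 and 84.2 for the other. The first probe did not differ between the arrays beyond the repeat-spot error, and the second was 1.65-fold higher in MGE-GFP+ than in ES-Lhx6-GFP- cells. The gamma genes end between 37841863 and 37841873 on chromosome 18 and share their last exons there. As for the alpha genes, whether a probe reads 1 isoform or all of them is not given in the sources used here.

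The delta-2 protocadherins, which guide cell sorting and axon growth, differed between GFP+ and GFP- cells in both directions. Pcdh19, an X-linked gene whose product forms adhesion complexes with N-cadherin, was at 2.81 in ES-Lhx6-GFP+, 0.486 in ES-Lhx6-GFP- and 3.88 in MGE-GFP+ cells. Both GFP+ populations stood well above ES-Lhx6-GFP- cells, by 5.78-fold and 7.98-fold, and differed from each other by 1.38-fold. The ES populations come from the same male line, while the MGE cells are labelled female. Pcdh17, which acts in axon extension and at synapses, had the same order, at 5.55, 2.26 and 7.22. Its excess over ES-Lhx6-GFP- cells was 2.46-fold in the ES-derived and 3.20-fold in the MGE-derived GFP+ cells, and the 2 GFP+ populations were within the repeat-spot error of each other.

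Pcdh18, in contrast, was at 0.624, 2.27 and 0.254. ES-Lhx6-GFP- cells were 3.63-fold above ES-Lhx6-GFP+ cells and 8.94-fold above MGE-GFP+ cells, where the gene was within the range of the control probes. The summed level of the 7 radial glia genes was also highest in ES-Lhx6-GFP- cells (60.7, against 12.0 and 14.7). So were those of the oligodendrocyte lineage genes (7.64, against 1.07 and 1.15) and of the mesenchymal and meningeal genes. All 7 pluripotency genes exceeded the control probes there, and 1, Nanog, did on each of the other arrays. The part of these lists in the Pcdh18 difference was not tested. Pcdh8, an activity-regulated protocadherin, was equal in the ES populations, at 2.85 and 3.11, and higher in MGE-GFP+ cells, at 6.29. It was the 1 gene called higher in MGE-GFP+ than in ES-Lhx6-GFP+ cells, by 2.21-fold, and this call was lost under quantile normalization, with scaling by the genes bright on all arrays and in the deposited values. Pcdh10, which is needed for the growth of striatal axons, was at 2.79, 2.71 and 3.25 and did not differ beyond the repeat-spot error by the mean of its 2 probes. The probes went opposite ways in MGE-GFP+ cells, with log2 differences of -0.29 and 0.74 against ES-Lhx6-GFP+ and of -0.20 and 0.73 against ES-Lhx6-GFP- cells.

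Of the delta-1 protocadherins, Pcdh7 exceeded the control probes in ES-Lhx6-GFP+ cells alone by the mean of its probes, at 0.578, against 0.146 in ES-Lhx6-GFP- and 0.215 in MGE-GFP+ cells. Its 3 probes were all brighter there, and single probes exceeded the control probes in the other populations too. It was called 3.96-fold and 2.68-fold higher than in them, or 2.63-fold and 2.26-fold when set against the range of the control probes, and the call against MGE-GFP+ cells was lost with scaling by the 50th percentile and in the deposited values. Pcdh1 was at 0.668, 0.621 and 0.487, 1.37-fold lower in MGE-GFP+ than in ES-Lhx6-GFP+ cells. The mean of the 3 Pcdh9 probes stayed within the range of the control probes. Of these probes, 1 exceeded the control probes on all arrays, at 0.561, 0.320 and 0.346, and another did in both ES populations, at 0.854, 0.495 and 0.141. Pcdh12, known from the vessel wall and the placenta, was at 0.611 in ES-Lhx6-GFP+ cells and not well above background on the other arrays. The bound against the lowest detected signal of those arrays was at least 29.0-fold and at least 29.2-fold, and against the range of the control probes at least 2.47-fold and 2.32-fold. Its level was only just above the control probes of the ES-Lhx6-GFP+ array (0.504). Of 8 endothelial genes, whose summed level was 1.94, 3.08 and 1.38, 2, 2 and 1 exceeded the control probes. Pecam1, Tek, Tie1, Cldn5 and Emcn stayed within their range on every array. Esam was at 0.508, 0.112 and 0.127, Egfl7 at 0.601, 2.37 and 0.129, and Kdr at 0.190, 0.295 and 0.811. The part of endothelial cells in the Pcdh12 differences was not tested.

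Among the type I cadherins, Cdh2 and Cdh4 exceeded the control probes on all arrays, and Cdh1, Cdh3 and Cdh15 on none. Cdh2 encodes N-cadherin, the main classical cadherin of the neural tube, and was at 8.01 in ES-Lhx6-GFP+, 6.78 in ES-Lhx6-GFP- and 14.9 in MGE-GFP+ cells. Its 2 probes gave MGE-GFP+ cells 1.87-fold and 2.57-fold the level of ES-Lhx6-GFP- cells. The gene was called 2.19-fold higher in MGE-GFP+ than in ES-Lhx6-GFP- cells and reached 1.86-fold against ES-Lhx6-GFP+ cells, and the call was lost under the same 3 settings and with the brighter probe alone. Cdh4, or R-cadherin, was at 2.00, 1.84 and 2.53. Cdh1, the epithelial E-cadherin, which is also present in ES cells, was at 0.183, 0.0724 and 0.00657, and Cdh3, or P-cadherin, was between 0.0375 and 0.0830.

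Of 13 type II cadherins, which sort neurons into groups and layers, 6 exceeded the control probes on at least 1 array. Cdh22 was at 6.92 in ES-Lhx6-GFP+, 4.63 in ES-Lhx6-GFP- and 2.41 in MGE-GFP+ cells, and was called 2.87-fold lower in MGE-GFP+ than in ES-Lhx6-GFP+ cells. This call was lost with scaling by the 50th percentile. Cdh8 was at 0.661, 0.365 and 0.856, with MGE-GFP+ cells 2.34-fold above ES-Lhx6-GFP- cells. Cdh20 was at 0.536, 0.521 and 0.204 and was called lower in MGE-GFP+ cells in both comparisons, by 2.63-fold and 2.56-fold. Its MGE value lay within the range of the control probes, against which the folds were 2.03 and 1.98, and each call held in 6 of the 10 alternatives. Cdh6, used in early forebrain boundaries, was at 0.208, 0.379 and 0.0526. It exceeded the control probes in ES-Lhx6-GFP- cells alone, and its 7.22-fold excess there over MGE-GFP+ cells came to 1.44-fold when set against the range of the control probes.

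Cdh10 was at 0.464, 0.584 and 0.596, within the repeat-spot error throughout. Cdh11 gave no clear order, because its 2 probes disagreed: the log2 differences of MGE-GFP+ cells were 1.26 and -0.83 against ES-Lhx6-GFP+ and 0.50 and -0.95 against ES-Lhx6-GFP- cells. Pcdh15 also had probes on opposite sides, for MGE-GFP+ against ES-Lhx6-GFP- cells. Its mean over 6 probes lay within the range of the control probes, while 1 of the probes was at 2.54, 2.79 and 2.00. Cdh5, the cadherin of endothelial cells, and Cdh17 were not well above background on any array and have no fold. Of the remaining cadherins, Cdh13, a cadherin anchored by a lipid, was at 0.562, 0.832 and 0.324. It was called 2.57-fold lower in MGE-GFP+ than in ES-Lhx6-GFP- cells. That call was lost with the normexp background treatment and in the deposited values. Cdh26 was at 1.33, 1.18 and 1.26 without a difference beyond the repeat-spot error.

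Of the Celsr genes, Celsr1 and Celsr2 were called lower in ES-Lhx6-GFP+ than in ES-Lhx6-GFP- cells, and Celsr3 differed by 1.24-fold, within the repeat-spot error. Celsr1, known from neural progenitors and the closing neural tube, was at 0.319 in ES-Lhx6-GFP+, 1.54 in ES-Lhx6-GFP- and 0.203 in MGE-GFP+ cells. It exceeded the control probes in ES-Lhx6-GFP- cells alone, 4.83-fold above ES-Lhx6-GFP+ and 7.61-fold above MGE-GFP+ cells, or 3.06-fold and 5.85-fold when set against the range of the control probes. Celsr2 was at 3.16, 6.39 and 3.10, and both of its probes had the same order. ES-Lhx6-GFP- cells exceeded the GFP+ populations by 2.02-fold and 2.07-fold, and these were equal within the repeat-spot error. The first of these calls was lost in 5 of the 10 alternatives, where the log2 difference went no nearer to 0 than -0.89. Celsr3, the member of postmitotic neurons that is needed for axon tracts and interneuron migration, was at 7.07, 8.77 and 9.43 and was not called. The sums of the radial glia and oligodendrocyte lineage genes were highest in ES-Lhx6-GFP- cells, where all 7 pluripotency genes exceeded the control probes. Nanog, among these 7, exceeded them on every array. The part of these lists in the Celsr1 and Celsr2 differences was not tested.

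**Figure D4:**
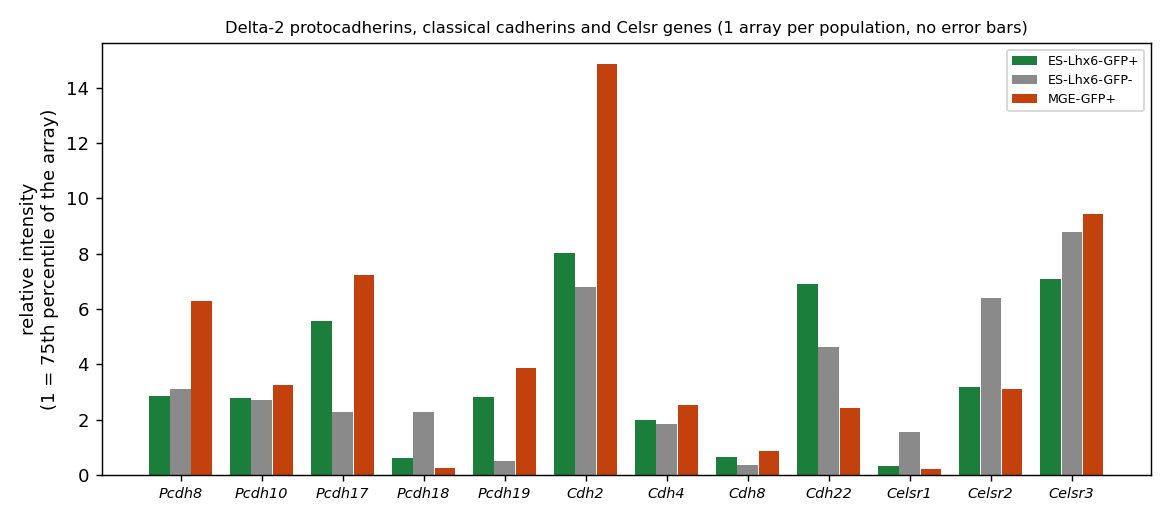
Relative intensity (1 is the 75th percentile of the array) of the delta-2 protocadherins, 4 classical cadherins and the Celsr genes, with 1 bar per population and no error bars, since each bar is 1 array. Pcdh17 and Pcdh19 are low in ES-Lhx6-GFP- cells, Pcdh18, Celsr1 and Celsr2 are high there, and Cdh2 and Pcdh8 are highest in MGE-GFP+ cells.

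Genes that act with the cadherins were read from lists of partners. Of 11 catenins and junction genes, 9 exceeded the control probes on the brighter array of the ES populations, and 3 were called higher in ES-Lhx6-GFP+ cells, where 3.6% of all genes were. The median log2 difference of these 9 was 0.44, against -0.04 over all genes above the control probes. These were the neuronal alpha-catenin Ctnna2 (9.29, 3.76 and 8.51), the neuronal delta-catenin Ctnnd2 (3.27, 1.45 and 4.05) and Pkp4 (3.12, 1.17 and 2.63). Vcl, which encodes vinculin, was called 2.09-fold lower in ES-Lhx6-GFP+ cells, with 0.468 there, within the range of the control probes, and 0.980 in ES-Lhx6-GFP- cells. Beta-catenin, Ctnnb1, was at 24.7, 17.1 and 39.2. Of the 9 planar polarity genes, Fzd3 (12.6, 13.6 and 15.4) and Vangl2 (13.4, 14.2 and 14.1) were alike in the 3 populations within the repeat-spot error, while Vangl1 was above the control probes in ES-Lhx6-GFP- cells alone, at 0.662. Prickle2 was at 1.04, 0.456 and 0.287, called 2.29-fold higher in ES-Lhx6-GFP+ than in ES-Lhx6-GFP- cells. In MGE-GFP+ compared with ES-Lhx6-GFP+ cells, 3 of the 9 were called lower and 0 higher, where 5.14 and 4.94% of all genes were. The 3 were Prickle2 (3.65-fold), Dvl1 (2.41-fold, at 2.08, 1.35 and 0.863) and Prickle1 (2.38-fold, at 1.63, 2.28 and 0.687).

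Of the Fat and Dachsous group, large cadherins that act beside Celsr in planar polarity, 1 of 6 genes was called between the ES populations. This was Fat1, at 2.78, 8.79 and 3.15, called lower in ES-Lhx6-GFP+ cells. Between these populations 3.6% of all genes were called higher and 5.38% lower. Of 3 calsyntenins, Clstn2, at 0.932, 0.501 and 0.452, was called 2.06-fold lower in MGE-GFP+ than in ES-Lhx6-GFP+ cells, where 5.14% of all genes were. Of 3 kinases bound by protocadherin tails, Ptk2, which encodes focal adhesion kinase, was at 0.642, 0.482 and 1.48 and was called higher in MGE-GFP+ cells in both comparisons. Of 4 nectins, the 3 above the control probes were all called lower in MGE-GFP+ than in ES-Lhx6-GFP- cells. Over all genes this held for 10.3%. Nectin2, at 1.36, 1.28 and 0.483, was called lower in the MGE population against ES-Lhx6-GFP+ cells too, by 2.81-fold. Nectin1 was at 0.519, 0.658 and 0.278. Nectin3 was at 3.39, 7.21 and 3.50, and its 2.13-fold difference between the ES populations was also called. Of 12 regulators of the clustered protocadherins, which hold the chromatin loops and the methylation at their promoters, none was called between the ES populations. Among all genes, 3.6% were called higher there and 5.38% lower. Compared with ES-Lhx6-GFP+ cells, the 11 above the control probes had log2 differences of 0.14 to 1.26 in MGE-GFP+ cells, with Stag2 and Smchd1 within the repeat-spot error, and 3 were called higher, where 4.94% of all genes were. Their median was 0.69, against 0.16 over all genes above the control probes. The 3 were Stag1 (0.860, 0.843 and 1.92), Setdb1 (3.06, 2.51 and 6.42) and Wiz (3.55, 5.73 and 8.51), and Ctcf, the factor bound at most of these promoters, was at 1.42, 1.23 and 2.79. Of the 5 repressors of E-cadherin, Twist1 exceeded the control probes in ES-Lhx6-GFP- cells alone, at 0.563, and its level of 0.187 in ES-Lhx6-GFP+ cells was within their range there. Zeb1 exceeded them on all arrays, at 2.70, 3.43 and 1.79, and Zeb2 in MGE-GFP+ cells alone, at 0.480. Neither Zeb gene was called in any comparison. The 7 desmosomal cadherins stayed within the range of the control probes in the ES-Lhx6-GFP+ cells, and Dsc1 alone exceeded it elsewhere, at 0.387 in ES-Lhx6-GFP- and 0.640 in MGE-GFP+ cells.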

How the data were processed

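Gene expression was read on 3 one-color arrays, 1 per sorted population. The authors extracted the scans with Agilent Feature Extraction (10.7.3.1 per the file headers), and the deposited scanner files hold spot intensities on a linear scale, background-subtracted and not scaled between arrays. The authors also deposited log2 values, used as an alternative; their scale is not stated, and 99.9994% lay within 0.2 of quantile-normalized log2 median spot intensities. The labels name an Agilent amplification kit and a smaller array format, while the methods name other kits and the format that the 62976 spots per array fit.

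From the intensities, log2 was taken and each array's 75th percentile over 55681 mouse probes was subtracted. Outlier-flagged spots were dropped (98 to 137 of 59305 mouse spots per array), and 0 were saturated. A probe not well above background was raised to the lowest detected value there, so that folds against it are bounds. Probes were named through their accessions in the RefSeq gene table of GRCm38.p6, which matched 26582 of 55681 probes to 1 gene each. A gene is the mean of its probes. Members, classes, marker and partner lists and the rules were chosen with earlier results of these data known. Genes named are all type I cadherins and Celsr genes, up to 4 genes per class by level, and genes whose probes disagree. Also named are the 6 largest called differences per comparison and up to 3 genes per partner list. Added after their values were seen were Pcdha4, Pcdha9, Pcdha11, Pcdhb1, Pcdhb3, Pcdhb4, Pcdhb5, Pcdhb7, Pcdhb9, Pcdhb12 to Pcdhb20, Pcdhb22, Pcdhgb1 and Pcdhgc5. So were Pcdh9, Cdh5, Cdh9, Cdh17, Cdh18, Cdh20, Ctnnb1, Vcl, Fzd3, Vangl2, Dvl1, Stag2, Smchd1 and Ctcf. Alternatives were 3 other scalings, 2 background treatments, including normexp in limma 3.58.1 on median spot signals, since mean signals were not in the columns used here, the deposited values, 3 treatments of dim probes, the brightest probe, and a 4-fold threshold. R 4.3.3, Python 3.11.15 and pandas 2.3.3 were used.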

Additional observations from a re-analysis of the deposited data

How the results depend on the processing

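No paired analysis was possible because each population has 1 array, and for the same reason no replicate could be left out. Of the 48 calls, 22 held in all 10 alternatives to the main values, and no called difference changed its sign in any, with Pcdhb19 giving no value with a floor at the control probes. In the order ES-Lhx6-GFP+ minus ES-Lhx6-GFP-, MGE-GFP+ minus ES-Lhx6-GFP+, and MGE-GFP+ minus ES-Lhx6-GFP-, the genes called higher and lower were 8 and 3, 1 and 14, and 7 and 15. With the 50th percentile in place of the 75th, 4 were higher and 5 lower in the first comparison and 11 higher and 6 lower in the second, with the third at 9 and 12. Quantile normalization and the deposited log2 values each left 0 higher in the second comparison, as did scaling by genes bright on all arrays, which put 4 higher in the third. The deposited values gave 4 higher and 9 lower in the third, and a floor at the control probes 9 lower there. With a filter on probes well above background in place of the control probes, 21 were higher in the first and 28 lower in the second, and with no filter 21 and 29. At 4-fold, 2 and 1, 0 and 3, and 1 and 4 were called. The cause of these changes was not tested, except that a 4-fold rule and a looser filter change the number of calls by construction. Intensities near the control probes carry little information: 24 of the 72 genes lay within their range on all arrays by the mean of their probes, and a fold against such a value changes with the floor.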
